A study of Mus musculus with 8 samples.

Results

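The distal arm of mouse chromosome 4 is the stretch from base 115000001 to the end of the chromosome at 155.63 Mb (build mm9), and it was compared with the rest of the chromosome, which lies before it. Its members are 500-kb bins chosen by position alone, with no measured value. Chromosome 4 has 312 of the 5322 bins of the contact matrices, 82 in the distal arm and 230 in the rest. A bin was dropped if its coverage in at least 1 sample was below 0.1 of its chromosome's median, which kept 302 bins of chromosome 4 out of 5093 in the genome. All 82 distal bins and 220 bins of the rest were kept. The 10 bins dropped were the first 3 Mb, next to the centromere (6 bins), 42 to 42.5 Mb, 60.5 to 61 Mb and 112.5 to 113.5 Mb (2 bins). The arm was proposed as gene-dense and the rest as holding gene deserts, but genes were not counted, because no mm9 annotation was used here, and both are named by position below.

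Chromatin in mammalian nuclei segregates into an A compartment, which holds most active genes, and a B compartment, which is gene-poor, late in replication and often tied to the nuclear lamina or the nucleolus. Hi-C reads this from cross-linked and ligated DNA: regions of one compartment contact each other more often than their distance along the chromosome alone would give. LINE-1 (L1) elements are retrotransposons that are densest in B regions, while B1 short interspersed elements are densest in A regions, and L1 elements are transcribed in embryonic stem cells. Mouse chromosomes have their centromere at one end, so a distal region lies towards the far telomere.

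The study asked whether L1 RNA takes part in this folding. Mouse embryonic stem cells (mESCs) were electroporated with a morpholino antisense oligo against L1 RNA (L1 AMO) or with a scramble oligo (SCR AMO), at 5 nmol per 100 μl in both groups. Cells that had taken up the oligo were sorted at 12 h and harvested at 36 h, and Hi-C libraries were made from 2 samples per group. The labels name neither the line nor its genotype. The oligos are shown because they are the only difference between the groups that the labels give; each has 25 bases, of which 12 (L1 AMO) and 8 (SCR AMO) are G or C, and the same base stands at 6 positions of both.
L1 AMO: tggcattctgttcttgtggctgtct
SCR AMO: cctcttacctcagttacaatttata

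The matrices held 112381720 contacts in SCR AMO replicate 1, 22252054 in SCR AMO replicate 2, 58030519 in L1 AMO replicate 1 and 46263849 in L1 AMO replicate 2. Within chromosome 4 they held 5068886, 995686, 2751670 and 2214258 contacts in the same order, which is the order of all lists of 4 values below. Each L1 AMO sample is the sum of 2 deposited matrices. SCR AMO replicate 2 is thus the shallowest sample and SCR AMO replicate 1 the deepest, so the controls differ from each other more in depth than from the treated samples. The 2 control matrices depart in total from the valid pairs tabulated with the study and the treated ones do not, so the making of the matrices and the treatment cannot be told apart in any difference given here. Nothing in the labels says that replicates are more than separately labelled samples, though the study describes separate transfections, and the p-values measure the spread between them. Permutation p-values below are two-sided, and the smallest that an exact permutation test of 2 against 2 can give is 0.333. A difference is therefore described by whether the ranges of the groups were separate (groups apart) or not (groups overlapped). Contact counts hold no expression, so the cell type was not checked with markers.

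The distal arm was almost wholly A and the rest mostly B. Compartments were read from eigenvector 1 of the correlation matrix of the observed/expected (O/E) map, where the expected value is the chromosome's mean balanced contact frequency at each distance. The vector was signed so that bins with more contact with chromosomes 11 and 19, which are gene-rich, are positive (A). In the mean map of the 4 samples, 73 of 82 distal bins (89.0%) and 46 of 220 bins of the rest (20.9%) were A. Across the 302 bins the vector's Pearson correlation with contact to chromosomes 11 and 19 was 0.855, a description over bins that share libraries and whose sign this contact set.

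Called in single samples, the distal arm had 74 and 75 A bins in SCR AMO and 71 and 71 in L1 AMO. The rest had 59 and 63 A bins in SCR AMO and 38 and 38 in L1 AMO. The pattern along the chromosome was nearly the same in all samples, and the bins that changed from A to B lay mostly in the rest. The mean of the vector was lower in L1 AMO in both parts, however. It was 0.898, 0.957, 0.719 and 0.663 in the arm and -0.519, -0.431, -0.673 and -0.695 in the rest. Counts of A bins, cut at 0, thus do not place the change in the rest alone. Between samples the vector correlated at 0.990 for the SCR AMO samples, 0.991 for the L1 AMO samples and 0.964 to 0.973 across the groups, over 302 bins that share a chromosome.

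Runs of bins of one sign show how unequal the parts are. In the distal arm 3 A runs of at least 2 Mb lay at 115.5 to 120.5 Mb, 122.5 to 142 Mb and 144.5 to 155.63 Mb. A single B run of that length, at 120.5 to 122.5 Mb, parted the first from the second. In the rest the B runs with the most kept bins were 62.5 to 83 Mb, 12 to 32 Mb, 86.5 to 98.5 Mb, 35 to 40.5 Mb and 48.5 to 53.5 Mb. The B run from 109 Mb to the border has 10 kept bins, as many as the last of these, and a longer span because it includes the 2 bins dropped at 112.5 Mb; it was left out of the pairs of runs below, since ties were taken from the start of the chromosome. In the rest, A runs of at least 2 Mb lay at 40.5 to 47.5 Mb, 56.5 to 60 Mb and 105.5 to 109 Mb. Runs of under 2 Mb lay between these: 9 of the 17 B runs and 3 of the 16 A runs of the rest had at least 2 Mb. Among runs of that length, the rest had mostly B runs and the distal arm mostly A runs.

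The compartment switch did not fall exactly on the border. The last bin before it had an eigenvector value of -0.392 and the first bin beyond it -0.336, both B, while the next bin, from 115.5 Mb, stood at 0.712. In single samples the first distal bin had -0.066 and 0.213 in SCR AMO and -0.646 and -0.703 in L1 AMO, and it was the only distal bin whose sign differed between the control samples. Contact across a point was scored as the log2 of the mean frequency in a 5-Mb by 5-Mb square over it, relative to the chromosome's mean square. At the border this was -0.61, -0.64, -0.39 and -0.31, and at 115.5 Mb, the local minimum, it was -0.82, -0.79, -0.57 and -0.47. The boundary was shallower in both L1 AMO samples, by 0.28 at the border (exact permutation p = 0.333) and by 0.29 at 115.5 Mb. With 10-Mb squares the difference at the border was 0.01 and the groups overlapped.

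Across that boundary the contact of near neighbours rose. Pairs of bins 2.5 to 5 Mb apart with 1 bin on each side had a mean balanced frequency of 15.3, 13.7, 24.4 and 26.1 ppm of the chromosome's total, from 2193, 411, 1819 and 1557 counts. Both L1 AMO samples were far above both SCR AMO samples, a log2 ratio of 0.80. Inside the distal arm the same distances gave 24.5, 22.4, 31.3 and 31.2 ppm, a log2 ratio of 0.42, and inside the rest 37.1, 34.1, 42.9 and 41.6, a ratio of 0.25. Contact at these distances was higher in both L1 AMO samples in each part, and the ratio was largest over the border, where the level had been lowest.

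Inside the arm, other points were as weakly crossed as its border. The lowest value of the 292 scored points of the chromosome lay at 147 Mb, at -1.24, -1.30, -1.04 and -0.96. At 140.5 Mb the values were -0.84, -0.88, -0.59 and -0.54. Each was higher in both L1 AMO samples, by 0.27 and 0.30, as at the border of the arm. Such rises are not particular to the arm and its border. In the rest the local minimum at 41 Mb had -1.02, -0.98, -0.62 and -0.60, a rise of 0.39. The one at 109 Mb had -0.685, -0.684, -0.326 and -0.320, a rise of 0.36. Not every minimum of the rest rose: at 60 Mb the difference was 0.01 with overlapping groups. All of these points but the border were chosen after their values were seen.

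The distal arm had a larger share of contacts with other chromosomes than the rest. They made up 34.4% and 34.6% of all contacts of distal bins in SCR AMO and 23.6% and 21.1% in L1 AMO, with Wilson 95% intervals no wider than 0.229 points, which cover counting error only. In the rest the share was 22.5% and 24.0% in SCR AMO and 17.3% and 16.1% in L1 AMO. The arm was above the rest in each sample, and both parts fell with L1 AMO, by 12.1 and 6.56 percentage points (exact permutation p = 0.333 for each, groups apart).

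The fall was larger in the arm also in proportion. Its share was 1.53 and 1.44 times that of the rest in SCR AMO and 1.36 and 1.31 times in L1 AMO, groups apart (exact permutation p = 0.333). The direction itself is not particular to chromosome 4: the groups were apart, with L1 AMO lower, in 100% of the 5093 kept bins of the genome, the 82 distal and 220 other bins of the chromosome among them. The share of the median bin fell by 11.7 points in the distal arm, fell by 6.11 points in the rest and fell by 7.69 points in the genome. Whole-genome interchromosomal shares were 22.3%, 22.8%, 15.8% and 14.2%, and the part that library quality has in the fall was not tested.

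Within the arm the share differed from tile to tile when bins were joined into 5-Mb tiles. The tile at 145 to 150 Mb was highest with 44.8%, 45.0%, 31.1% and 28.0%, and it also fell the most, by 15.4 points. The tile at 130 to 135 Mb had 37.1%, 37.6%, 25.8% and 22.7%, next in order except in L1 AMO replicate 2, where the tile at 140 to 145 Mb was higher (23.1%). The lowest distal tile, the first one after the border, had 29.9%, 30.1%, 21.1% and 18.9%. The first tile of the chromosome, the highest of the rest, had 29.8%, 31.6%, 24.0% and 22.3%. It lay above the lowest distal tile in all samples but SCR AMO replicate 1, so single tiles of arm and rest overlapped in their shares. The tile at 40 to 45 Mb, the center of the strongest A island of the rest, had 28.7%, 29.7%, 21.1% and 18.7%.

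Chromosomes 19 and 11 were the main partners of the arm. Balanced contact with each chromosome was divided by the mean of all bins of chromosome 4 over all 19 partner chromosomes. By the mean over the 4 samples, the distal arm had its highest relative contact with chromosome 19 (1.93, 1.76, 1.65 and 1.57), then with chromosome 11 (1.83, 1.72, 1.69 and 1.56) and chromosome 9 (1.55, 1.46, 1.46 and 1.36). The order changed in single samples: in L1 AMO replicate 1 chromosome 11 was above chromosome 19. Since chromosomes 11 and 19 set the sign of the eigenvector, their rank restates in part that the arm is A. By the same mean the lowest contact was with X (0.818, 0.796, 0.690 and 0.689), then with chromosome 3 (1.17, 1.15, 1.01 and 0.985) and chromosome 6 (1.19, 1.19, 1.11 and 1.09). Contact with X stayed under the mean in every sample, while each autosome had a mean over the 4 samples above it. The highest partners and the low contact with X are not particular to the arm. The A bins of the rest also had chromosomes 19 (mean over the 4 samples 1.26), 11 (1.24) and 9 (1.19) highest and X lowest (0.576). In the whole rest X was lowest too (0.605).

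Relative to the whole chromosome, the arm lost part of its lead in L1 AMO with most partners. Over all partners its relative contact was 1.38, 1.33, 1.27 and 1.21, while that of the rest was 0.857, 0.878, 0.901 and 0.921. The groups lay apart in both parts and in opposite directions, because the measure shares 1 mean. Its A bins carried the loss with 1.41, 1.35, 1.28 and 1.21, whereas its 9 B bins had 1.19, 1.16, 1.18 and 1.19, where the groups overlapped. In the rest the A bins had 1.03, 1.02, 1.02 and 0.998 and the B bins 0.812, 0.840, 0.871 and 0.901. Bins of the 2 compartments thus became more alike in how much they met other chromosomes.

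The arm and the rest met each other less in L1 AMO. Contacts between them were 7.49%, 7.38%, 6.55% and 6.40% of the balanced contact frequency within chromosome 4, contacts inside a bin left out, a fall of 0.967 points (exact permutation p = 0.333, groups apart). This fall is not particular to chromosome 4: with each of the 19 autosomes divided at the same distance from its end, the share between the parts was lower in L1 AMO in all 19, and chromosome 4 ranked 15 from the deepest fall in percentage points. Its share was the lowest of the 19, and in proportion its fall ranked 1, at -12.999% beside -12.963% for chromosome 1, a description with no test. Contacts within the distal arm were 18.1%, 18.2%, 20.0% and 20.3% and contacts within the rest 74.4%, 74.4%, 73.4% and 73.3%. The loss between the parts was found with every alternative run, from -1.54 points with raw counts to -0.720 points with contacts inside a bin included. Balancing gives each bin the same total over the whole genome, interchromosomal contacts included. With raw counts the share within the arm instead fell by 0.311 points with overlapping groups, and the share within the rest was higher by 1.85 points.

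The loss was deepest beyond 40.5 Mb. Between the parts, pairs more than 80 Mb apart had 1.46, 1.35, 0.942 and 0.826 ppm, a log2 ratio of -0.67. Pairs 41 to 80 Mb apart had 2.42, 2.18, 1.97 and 1.86, a ratio of -0.26, and pairs 20.5 to 40.5 Mb apart 4.45, 4.30, 4.20 and 4.06, a ratio of -0.08. Pairs 10.5 to 20 Mb apart had 8.41, 7.88, 7.65 and 7.44, a ratio of -0.11, close to that of the band before it. Pairs 5.5 to 10 Mb apart had 15.1, 13.99, 15.8 and 15.3, a ratio of 0.10, so from 2.5 to 10 Mb contact was higher in L1 AMO. Log2 ratios of single L1 AMO to single SCR AMO samples ran from 0.02 to 0.18 in this band. At 10.5 to 20 Mb they ran from -0.18 to -0.04, so the size of both changes depends on the samples compared. The fall was deepest in the farthest band, and the groups lay apart in each of these bands. Inside the rest the ratios were -0.08 for 10.5 to 20 Mb, -0.07 for 20.5 to 40.5 Mb, -0.37 for 41 to 80 Mb and -0.60 beyond 80 Mb.

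With distance divided out, the 3 mean O/E values hardly moved. Within the distal arm O/E was 0.877, 0.869, 0.859 and 0.842, within the rest 1.09, 1.08, 1.09 and 1.09 over the same distances, and between the parts 0.834, 0.841, 0.850 and 0.853. The log2 ratios were -0.04, 0.01 and 0.02, with groups apart (exact permutation p = 0.333 for each), and without L1 AMO replicate 2 the first was -0.02. With the border at 110 or 120 Mb the value for the arm was 0.01 with overlapping groups, and contacts between the parts turned to -0.03 with raw counts, -0.01 with chromosome 4 balanced alone and -0.07 with an expected value from all autosomes. Without L1 AMO replicate 2 the value for the rest was 0.003. The level is the clearer feature: pairs inside the arm and pairs across its border met less than the chromosome's mean for their distance in all 4 samples. When each of the 19 autosomes was divided at the same distance from its end, chromosome 4 had the lowest O/E inside the end part (0.862), the lowest between end part and rest (0.845) and the highest inside the rest (1.09).

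Inside the arm, the share of long distances was lower in L1 AMO and that of middle distances higher. Of the frequency of pairs inside the distal arm, 8.51%, 7.63%, 8.98% and 8.68% lay between 2 and 10 Mb, and in the rest, over the same range of distances, 11.5%, 10.6%, 13.2% and 12.98%. Both were higher in L1 AMO, by 0.755 and 2.02 points (exact permutation p = 0.333 for each, groups apart). The difference in the arm was 1.20 points without SCR AMO replicate 1 and 0.314 without SCR AMO replicate 2, and with raw counts it was 0.547 with overlapping groups. Beyond 10 Mb the arm had 7.01%, 6.33%, 5.59% and 5.15%, a fall of 1.30 points with groups apart (exact permutation p = 0.333), and the rest 12.7%, 11.9%, 11.9% and 11.8%, with overlapping groups (exact permutation p = 0.667). For the rest the difference was -0.472 points, -0.043 without SCR AMO replicate 1 and, with groups apart, -0.902 without SCR AMO replicate 2. Whether the parts differ in this loss was not tested. Up to 2 Mb the arm had 84.5%, 86.0%, 85.4% and 86.2%, a difference of 0.545 points with overlapping groups (exact permutation p = 0.667) that was -0.239 without SCR AMO replicate 1 and, with groups apart, 1.33 without SCR AMO replicate 2 and 0.914 without L1 AMO replicate 1. In the rest this share was 75.7%, 77.5%, 74.9% and 75.3%, a difference of -1.55 points with groups apart (exact permutation p = 0.333), which was -2.44 without SCR AMO replicate 1 and -0.665 without SCR AMO replicate 2. The gain of the rest between 2 and 10 Mb thus stood beside a loss at shorter distances, and that of the arm beside a loss at longer ones.

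The plaid pattern of chromosome 4 was weaker in L1 AMO. Compartment strength, the mean O/E of A-A and B-B pairs over that of A-B pairs among bins in the top and bottom 20% of the eigenvector, was 4.37 and 4.38 in SCR AMO and 3.38 and 3.17 in L1 AMO. It fell by 1.09, with groups apart (exact permutation p = 0.333), and fell by 0.148 with corners of 50%. Of its parts, A-B contact rose from 0.340 and 0.344 to 0.422 and 0.440, A-A contact fell from 1.61 and 1.62 to 1.57 and 1.52, and B-B contact fell from 1.36 and 1.39 to 1.28 and 1.28. The rise of A-B pairs (log2 ratio 0.33) was the largest of the 3, and the B-B change turned to 0.04 with raw counts and to 0.015 with corners of 50%. The A-A change, -0.06, was -0.10 without L1 AMO replicate 1. That A-A and B-B lie above A-B follows from how the eigenvector is built. The same vector, from the mean map of the 4 samples, served both groups. Whether its choice adds to the difference between the groups was not tested with a vector of L1 AMO alone.

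Contacts of A bins of the arm show which part of the plaid pattern changed. With A bins of the rest their O/E was 1.61 and 1.62 in SCR AMO and 1.53 and 1.498 in L1 AMO, a log2 ratio of -0.10. With B bins of the rest it was 0.584 and 0.595 against 0.611 and 0.615, a ratio of 0.06. Among themselves it was 0.963 and 0.954 against 0.924 and 0.894, a ratio of -0.08. For A bins of the arm, A-A contact was lower and A-B contact with the rest higher in L1 AMO, each with groups apart (exact permutation p = 0.333). A-B contact did not rise everywhere. B bins of the arm had 1.18, 1.17, 1.16 and 1.15 with A bins of the rest, a ratio of -0.02 with groups apart (exact permutation p = 0.333). This turned to 0.03 without L1 AMO replicate 2 and to 0.08 with the eigenvector of the SCR AMO samples, so it has no settled direction. Within the rest A-B contact was 0.944, 0.928, 0.942 and 0.940, a ratio of 0.008 with overlapping groups (exact permutation p = 1), and without SCR AMO replicate 2 it was -0.02 with groups apart. The rise with B bins of the rest was 0.04 without SCR AMO replicate 1, and it turned to -0.02 with raw counts and to -0.04 with an expected value from all autosomes. Without L1 AMO replicate 2 the A-A ratio within the arm was -0.05.

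The 9 B bins of the arm had, on average, a higher O/E with the B bins of the rest in L1 AMO. It was 1.11, 1.08, 1.26 and 1.32, a log2 ratio of 0.24 with groups apart (exact permutation p = 0.333). The arm's B run at 120.5 to 122.5 Mb, which has 4 of these bins, did not share this with most long B runs: its log2 ratio was 0.26 with 12 to 32 Mb, but -0.06 with 62.5 to 83 Mb, -0.11 with 86.5 to 98.5 Mb and -0.18 with 35 to 40.5 Mb, each with groups apart, and 0.05 with 48.5 to 53.5 Mb, with overlapping groups. Among themselves the 9 bins had 1.34, 1.32, 1.48 and 1.41, a ratio of 0.12 with groups apart (exact permutation p = 0.333), which was -0.002 with raw counts and, with the border at 110 Mb, 0.03 with overlapping groups. With A bins of the arm the O/E of its B bins was 0.519, 0.514, 0.576 and 0.608, a ratio of 0.20, which turned to -0.08 with raw counts. In the rest, A bins met each other less (1.78, 1.80, 1.56 and 1.51, a ratio of -0.22), and B bins met each other at 1.20, 1.20, 1.21 and 1.21, a ratio of 0.00 although the groups were apart (exact permutation p = 0.333). That B-B ratio was -0.002 without L1 AMO replicate 2, 0.007 without L1 AMO replicate 1, 0.005 without SCR AMO replicate 1 and -0.03 with an expected value from all autosomes, so it has no settled direction. The A-A loss was deeper within the rest than across the border, a difference that was not tested.

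Among named runs, the A island at 40.5 to 47.5 Mb was the main partner of the arm in the rest. Its O/E was 2.68, 2.82, 2.63 and 2.48 with the distal run at 115.5 to 120.5 Mb. With the run at 122.5 to 142 Mb it was 2.31, 2.33, 2.31 and 2.23, from 15653, 2713, 5332 and 3458 counts. With the run at 144.5 to 155.63 Mb it was 2.34, 2.23, 2.33 and 2.27. The island thus met every distal A run at more than the chromosome's mean for that distance, across the long B blocks that lie between. The log2 ratios were -0.11, -0.03 and 0.01, and only the first had its groups apart. The first was -0.06 without L1 AMO replicate 2, and at a coverage limit of 0.5 it was -0.07 with overlapping groups. Leaving out 1 library moved the second between -0.06 (L1 AMO replicate 1) and -0.003 (L1 AMO replicate 2), and the third between -0.03 (SCR AMO replicate 2) and 0.05 (SCR AMO replicate 1), so neither has a direction here.

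The A run nearest to the arm had less contact with it in L1 AMO. The run at 105.5 to 109 Mb had an O/E of 1.13, 1.16, 0.926 and 0.866 with the run at 122.5 to 142 Mb, a log2 ratio of -0.35. With the run at 115.5 to 120.5 Mb it had 1.51, 1.60, 1.38 and 1.32, a ratio of -0.20, and with the run at 144.5 to 155.63 Mb 1.11, 1.05, 0.988 and 0.953, a ratio of -0.16. In each of the 3 the groups lay apart. The run at 56.5 to 60 Mb had 1.40, 1.42, 1.19 and 1.19 with the run at 122.5 to 142 Mb, a ratio of -0.24. With the other two A runs of the arm its groups overlapped, at ratios of -0.07 and -0.04. The falls of -0.35, -0.24 and -0.20 were the largest among pairs of these runs across the border with at least 100 counts in every sample, and in each the groups lay apart.

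The lowest O/E values and the largest rises came from the long B blocks next in line. The block at 86.5 to 98.5 Mb had 0.361, 0.363, 0.499 and 0.502 with the run at 144.5 to 155.63 Mb, a log2 ratio of 0.47, from 3568, 645, 1900 and 1410 counts. With the run at 122.5 to 142 Mb it had 0.389, 0.387, 0.488 and 0.489, a ratio of 0.33. The block at 62.5 to 83 Mb had 0.357, 0.371, 0.450 and 0.470 with the run at 144.5 to 155.63 Mb, a ratio of 0.34, and 0.369, 0.383, 0.448 and 0.453 with the run at 122.5 to 142 Mb, a ratio of 0.26. The pairs with the lowest O/E across the border were among those with the largest rises, and they stayed well under the mean for their distance. The block at 12 to 32 Mb did not share this. With the run at 122.5 to 142 Mb it fell from 0.677 and 0.682 to 0.612 and 0.614, a ratio of -0.15. With the runs at 115.5 to 120.5 Mb and 144.5 to 155.63 Mb its ratios were 0.03 and 0.009, with overlapping groups. That last block was chosen after its values were seen.

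The short B run of the arm at 120.5 to 122.5 Mb lost some of its separation from the A runs beside it. Its O/E with the run at 115.5 to 120.5 Mb was 0.466, 0.443, 0.586 and 0.672, a log2 ratio of 0.47. With the run at 122.5 to 142 Mb it was 0.422, 0.438, 0.513 and 0.552, a ratio of 0.31. Inside itself it fell from 1.83 and 1.85 to 1.73 and 1.66. Between the A runs at 115.5 to 120.5 Mb and 122.5 to 142 Mb O/E fell from 1.09 and 1.10 to 0.961 and 0.930, a ratio of -0.22. The groups were apart in each of these 4 comparisons, which were chosen after their values were seen. Between 115.5 to 120.5 Mb and 144.5 to 155.63 Mb it fell from 1.19 and 1.12 to 1.06 and 0.992, a ratio of -0.17 with groups apart, and between 122.5 to 142 Mb and 144.5 to 155.63 Mb the ratio was -0.05 with overlapping groups. Inside the run at 122.5 to 142 Mb the ratio was -0.07, while inside the runs at 115.5 to 120.5 Mb and 144.5 to 155.63 Mb O/E was higher in L1 AMO, at ratios of 0.13 and 0.12.

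Single pairs of 5-Mb tiles were compared by their raw counts, over all chromosomes, with the quasi-likelihood test of edgeR and TMM scaling, and pairs were called at a Benjamini-Hochberg adjusted p under 0.05. On chromosome 4, 321 of 496 tile pairs were called (64.7%), against 56.8% of 7626 pairs in the genome, so the number alone sets the chromosome little apart. In direction, 62.5% of the 184 pairs between arm and rest were lower in L1 AMO, against 30% in the genome, and 16 were higher (8.70%), against 26.9%. Among pairs more than 40 Mb apart, 106 of 148 between the parts were lower (71.6%), against 48.4% of such pairs in the genome. Within the rest 71 of 105 such pairs were lower (67.6%), so in this fit the excess is not particular to contacts of the arm. Without SCR AMO replicate 1 the controls are 1 sample, so that fit takes its spread from L1 AMO alone. It therefore cannot decide whether the chromosome's excess of called pairs depends on that sample. In that fit the share called on chromosome 4 was no higher than in the genome, and in each other fit without 1 sample it was higher. Those fits also leave 1 group with 1 sample, so they cannot decide this either. Scaled by library size alone, which put the median log2 fold change of all pairs in the genome at -0.187 against -0.008 with TMM, 4 pairs between the parts were higher and 135 lower, and of all called pairs of the chromosome 6.62% were higher, against 34.3% with TMM. In the genome this share also dropped, to 18.7% from 47.3%.

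Inside the arm, 8 of 36 tile pairs were higher (22.2%) and 16 lower (44.4%), against 26.9% and 30% in the genome. The higher ones all lay 5 to 10 Mb apart, where 8 of 13 pairs were higher and 3 lower, and of 15 pairs at 15 to 40 Mb 13 were lower (86.7%) and the highest log2 fold change was -0.02. At 15 to 40 Mb 20.6% of 2496 pairs in the genome were lower, and 8.57% of 105 pairs in the rest. In the rest, 40 of 43 pairs at 5 to 10 Mb were higher, and in the genome 84.7% of such pairs. With TMM, near pairs were mostly higher and far pairs mostly lower in the arm. The rises depend on this scaling: with library size alone the 20 pairs that edgeR called in the arm were all lower, and in all of the rest 15 pairs were higher, against 86 with TMM. Without SCR AMO replicate 1 the spread comes from L1 AMO alone, so that fit cannot decide whether these calls hold.

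A second fit replaced TMM by each sample's own expected count at these distances, so that a call is a change beyond the general change by distance. It called 228 of the 496 pairs (46.0%), against 56.8% in the genome. Within the arm 30 of 36 pairs were lower (83.3%), against 31.9% in the genome, and the highest log2 fold change of the 36 was -0.02, so all leaned lower. Between the parts 81 of 184 were lower (44.0%) and 24 higher (13%), against 24.8% in the genome, and within the rest 53 of 276 were lower (19.2%) and 40 higher (14.5%). Of pairs more than 40 Mb apart, 44.6% of the 148 between the parts were lower, 25.7% of the 105 within the rest and 26.9% in the genome. In this fit on raw counts, most pairs inside the arm were lower in L1 AMO for their distance, and fewer inside the rest. Raw counts are not corrected for the coverage of bins. All contacts of distal bins numbered 3438391, 659857, 1562225 and 1143773, and those of the rest 7702886, 1511437, 3865522 and 3092566. Relative to the rest the arm thus held fewer in both L1 AMO samples, and the part of this in the calls was not tested. The share of lower pairs among A-A pairs of the genome was not computed. All 36 pairs of the arm join A tiles, and A-A pairs elsewhere on the chromosome were mostly lower too. They were lower in 26 of 32 between the parts (81.2%) and in 6 of 10 within the rest (60%). Of the 190 B-B pairs within the rest 18 were lower (9.47%). The balanced O/E of single tiles with the other tiles of the arm differed from this: it was lower with groups apart in 4 of 8 tiles, higher with groups apart at 120 to 125 Mb (log2 ratio 0.03) and overlapping in 3. The share of tiles with groups apart over the genome was not computed for this O/E. DESeq2 called 128 pairs of the chromosome in this fit (25.8%), against 39.1% in the genome, 23 of them lower within the arm. Without SCR AMO replicate 1 the controls are again 1 sample, so calls of that fit cannot decide how many of these changes hold.

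Along the rest the share of lower pairs changed with place. In the distance-adjusted fit, 55 of the 96 pairs of the arm with tiles before 60 Mb were lower (57.3%), against 31.9% in the genome. Of the 88 pairs with tiles from 60 Mb to the border 24 were higher (27.3%) and 26 lower (29.5%). These shares were close to those in the genome, 24.8% and 31.9%. The division at 60 Mb was chosen after the values were seen. The higher pairs came from 5 tiles: 7 of 8 pairs of the tile at 90 to 95 Mb, 6 of 8 of the tile at 75 to 80 Mb, 6 of 8 of the last tile before the border, 3 of 8 of the tile at 65 to 70 Mb and 2 of 8 of the tile at 70 to 75 Mb. All 8 pairs of the tile at 105 to 110 Mb, an A tile next to these, were lower.

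The balanced O/E with the whole arm had the direction of the fit in some tiles and not in others. Of the 11 tiles from 60 Mb to the border, 7 were higher with groups apart, 2 lower and 2 overlapped. Among the 7 were the tiles at 95 to 100 Mb (log2 ratio 0.10) and 100 to 105 Mb (0.05), for which the fit called only lower pairs, 2 of 8 and 3 of 8. The other 5 were those with higher pairs in the fit. The tile at 75 to 80 Mb had 0.366, 0.397, 0.500 and 0.498, a log2 ratio of 0.39. The last tile before the border had 0.465, 0.476, 0.596 and 0.629, a ratio of 0.38. The tile at 105 to 110 Mb had 1.01, 1.03, 0.911 and 0.877, a ratio of -0.19. The groups were apart in each. The last 3 tiles were chosen after their values were seen. Before 60 Mb the balanced O/E did not show the fall of the fit in most tiles: of 12 tiles, 4 were lower with groups apart, 1 was higher (35 to 40 Mb, 0.07) and 7 overlapped, among them 0 to 5 Mb (0.03) and 15 to 20 Mb (0.01). The share of tiles with groups apart over the genome was not computed for this measure. Without any difference, 2 against 2 samples lie apart in 0.333 of cases, so these counts of tiles are a description.

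Of single pairs, those with the strongest fall joined the start of the chromosome to the tile at 130 to 135 Mb. The tile at 0 to 5 Mb had 281, 53, 60 and 37 counts with it, a log2 fold change of -1.35 (edgeR adjusted p = 5.27e-07) and of -0.99 beyond distance (edgeR adjusted p = 1.5e-07). The tile at 15 to 20 Mb had 525, 100, 134 and 80 counts, with changes of -1.12 and -0.71. The tile at 10 to 15 Mb had 956, 181, 249 and 151, with changes of -1.08 and -0.69. The tile at 10 to 15 Mb also lost contact with the tile at 145 to 150 Mb, from 690 and 132 to 195 and 121 counts, changes of -0.95 and -0.63. These are B tiles paired with A tiles far along the chromosome, and their counts are low in SCR AMO replicate 2 and in both L1 AMO samples. The fifth in the first fit joined 30 to 35 Mb with 145 to 150 Mb (-0.93), and the fifth beyond distance joined the A tiles at 55 to 60 Mb and 130 to 135 Mb, which had 2055, 327, 583 and 383 counts (-0.57).

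The strongest rises joined B tiles nearer the border to A tiles of the arm. The last tile before the border had 665, 116, 504 and 448 counts with the tile at 135 to 140 Mb, a log2 fold change of 0.74 (edgeR adjusted p = 3.3e-06) and of 0.66 beyond distance (edgeR adjusted p = 4.44e-13). The tile at 90 to 95 Mb had 493, 95, 388 and 304 counts with the tile at 135 to 140 Mb, with changes of 0.67 and 0.70, and 412, 73, 293 and 215 counts with the last tile of the chromosome, with changes of 0.51 and 0.68. Beyond distance the tile at 75 to 80 Mb rose with the tiles at 135 to 140 Mb (0.59) and 125 to 130 Mb (0.53). In the first fit the other 2 joined 55 to 60 Mb with 65 to 70 Mb, inside the rest (0.49), and the last tile before the border with 125 to 130 Mb (0.49). Each of these pairs across the border joined a B tile to an A tile. The rise of 90 to 95 Mb with the last tile was not called when scaled by library size alone (0.32). Without SCR AMO replicate 1 the change of 75 to 80 Mb with 135 to 140 Mb beyond distance was 0.43.

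The tiles of the arm differed among themselves in contact with the rest. The tile at 140 to 145 Mb, which is mixed in compartment, had an O/E of 0.901, 0.912, 1.03 and 1.07 with the rest, a log2 ratio of 0.21. The tile at 130 to 135 Mb had 0.755, 0.786, 0.687 and 0.681, a ratio of -0.17. The last tile had 0.645, 0.645, 0.682 and 0.682, a ratio of 0.08, and the tile at 135 to 140 Mb 0.622, 0.630, 0.627 and 0.607, where the groups overlapped. Tiles of the arm thus differed in direction, and the groups were apart in the first 3. These tiles were chosen after their values were seen.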

How the data were processed

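The files hold raw counts of contacts between 500-kb bins, as deposited, which the authors made from in situ Hi-C read pairs with CASAVA and HiC-Pro 2.7.1b (per the labels) on mm9; the study's methods name another HiC-Pro version. The 2 matrices of each L1 AMO sample were added. Matrices were balanced by iterative correction over autosomes and X with Python 3.11.15, numpy 2.4.6 and scipy 1.17.1; O/E used pairs at least 1 Mb apart. Tile pairs with a mean of at least 10 counts were tested with edgeR 4.0.16 (R 4.3.3) and, as an alternative, DESeq2 1.42.0. The code was tested on simulated data. Named regions were runs of at least 4 bins (in the rest the 5 longest of each sign), the 3 run pairs across the border with the highest, lowest, most raised and most lowered O/E, the 5 called tile pairs with the largest change in each direction and fit, the bins beside the border, and the 3 highest and 3 lowest partner chromosomes. Members and lists were chosen with earlier results of these data known. The 4 H3K9me3 ChIP samples were not analysed here.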

Additional observations from a re-analysis of the deposited data

How the results depend on the processing

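Of 214 alternatives to the 17 main measures, 190 kept the groups apart or overlapping as reported, with the same direction where apart, and so did 91 of 100 for named run pairs, 228 of 230 for named tile pairs and 148 of 171 for other measures. Of 69 alternative counts of called tile pairs, 60 stayed within 1.5 times the main count and 9 were lower. The cause of the exceptions was not tested. Values are percentage points for shares and log2 for the rest.

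With no balancing the share within the distal arm was -0.311, the share within the rest 1.853, O/E between arm and rest -0.029, A-B between arm and rest -0.018, A-B within the arm -0.081, A-B within the rest -0.034, B-B within the arm -0.002, the B-B corner 0.035, the 2 to 10 Mb share of the arm 0.547 and the share beyond 10 Mb in the rest -0.614. With chromosome 4 balanced alone the share within the rest was 0.887, O/E between the parts -0.006 and B-A between them, from B bins of the arm, 0.000. With an expected value from all autosomes, O/E between the parts was -0.067, A-B between them -0.035, A-B within the rest -0.017 and B-B within the rest -0.026. With the eigenvector of the SCR AMO samples B-B within the rest was -0.001 and B-A between the parts 0.076. With corners of 50% the B-B corner was 0.015. With the border at 110 Mb, O/E within the arm was 0.007, contact across the border -0.024, the share beyond 10 Mb in the rest -0.567, B-B within the rest 0.003 and B-A between the parts 0.005; at 120 Mb O/E within the arm was 0.006 and B-A between the parts 0.030. With 10-Mb squares contact across the border was 0.012. The share beyond 10 Mb in the rest was -0.485 at a coverage limit of 0.5 and -0.479 with the first L1 AMO matrix alone, with which B-A between the parts was 0.005.

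Leaving out 1 sample at a time, the share beyond 10 Mb in the rest ranged from -0.902 to -0.043, B-B within the rest from -0.002 to 0.007, A-B within the rest from -0.023 to 0.020, B-A between the parts from -0.044 to 0.026, and 40.5 to 47.5 Mb with 144.5 to 155.63 Mb from -0.028 to 0.045. Tile pairs called on chromosome 4 ranged from 181 to 348, and with the distance offset from 111 to 234, the lowest in both without SCR AMO replicate 1, the deepest sample. Each fit without 1 sample leaves 1 group with 1 sample, and the spread then comes from the other group alone. DESeq2 called 254 tile pairs (51.2%, against 45.2% in the genome), and 128 with the distance offset (25.8%, against 39.1%). Library size alone called 19 higher and 268 lower, 57.9% of pairs against 55.5% in the genome.

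The labels give samples of the same number nothing else in common. The study describes independent transfection experiments, and whether a number marks 1 of them is not known here. With a replicate block 341 tile pairs were called (68.8%, against 62.8% in the genome), and 247 with the distance offset (49.8%, against 59.1%). The share beyond 10 Mb in the rest was then -0.472 with both differences of 1 sign. The share up to 2 Mb in the arm also rose within both numbers, from 84.474 to 85.433 and from 86.041 to 86.172. The smallest p of such a paired test is 0.5. The deviations of same-numbered samples correlated at 0.225 and, with the offset, 0.0845; with 2 pairs this does not pair the samples.

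Values by distance band, by single tile, by partner chromosome, at points other than the border, of runs within the arm and of run pairs outside the naming rule were computed with 1 setting alone, so their dependence on the processing is not known.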
